A study of Homo sapiens with 9 samples.

Results

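C3 encodes complement component 3, and it was followed here across the 9 RNA libraries of a study of U-87 cells treated with evernic acid (EA) and temozolomide (TMZ). The gene was selected on its measured direction: with EA alone it was listed above untreated cells, and with TMZ present it was listed below them. Its levels and fold changes are therefore given as a description, with standard errors and counting intervals but with no test. C3 is 1 of 80013 genes and unassigned transcripts in the count table, and 1 of the 609 with a mean of at least 10 counts per library, which is the minimum for being tested. All of its counts came from a single transcript row, NM_000064.4. In the RefSeq annotation of GRCh38.p14 the gene lies on the minus strand of chr19:6677704-6720650, and no other annotated gene overlaps it.

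U-87 is an established human glioblastoma line, EA is a depside made by lichens, and TMZ is the alkylating drug used in glioblastoma therapy. Every library came from this 1 line, and the treatments lasted 24 h. The controls, labelled as having no treatment, gave 3 libraries. Whether they received the solvent of the compounds is not given in the sources used here, so an effect of solvent and one of compound cannot be told apart in the comparisons with controls. Each treatment gave 1 library: EA at 30 µM (EA30), EA at 45 µM (EA45), TMZ at 600 µM (TMZ600), and the combinations EA20TMZ380, EA20TMZ580 and EA35TMZ320, whose names hold the EA and TMZ doses in µM. The 2 EA libraries and the 3 combinations differ in dose within their group and are not replicates. The labels do not say that the 3 controls came from separate cultures, so p-values against the controls measure only the spread between these 3 libraries, which may be technical. That spread is shared largely over all genes tested and is not taken from each gene alone. P-values between EA alone and TMZ alone or the combinations come from a fit with 4 groups, whose spread also holds the dose differences within EA alone and within the combinations.

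Complement is a cascade of plasma proteins that marks surfaces for removal, recruits immune cells and can perforate membranes. The classical, lectin and alternative pathways all converge on C3, which convertases split into C3a, a small inflammatory peptide, and C3b, which binds covalently to nearby surfaces through a thioester. Liver is the main source of plasma C3, but astrocytes and glioma cells also make it, and in brain C3 is widely used as a marker of reactive astrocytes.

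The libraries were read from the 3′ end of messages, so the end of the C3 transcript is what the counts sample. The coding part of its last exon is shown for that reason. It spans chr19:6677882-6678023 on the minus strand of GRCh38, is 142 bases long, and belongs to the last of 41 exons of the GENCODE v29 transcript ENST00000245907, with the stop codon in capitals.
C3 last coding stretch: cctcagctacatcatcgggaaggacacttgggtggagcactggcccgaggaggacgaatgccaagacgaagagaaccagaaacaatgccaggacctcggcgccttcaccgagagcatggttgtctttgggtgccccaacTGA
The transcript goes on for 178 bases of 3′ UTR on the same exon.

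The libraries held between 213566 counts (EA35TMZ320) and 490235 counts (EA30). Mitochondrial transcripts took 48.44% to 49.1% of the counts in the controls, 58.16% in EA30 and 54.79% in EA45, and 51.65% to 58.72% in the 4 libraries with TMZ, so this share was higher than in the controls both where C3 was high and where it was low, and its part in the C3 levels was not tested. Many common messages were listed at 0 in all libraries, and a 0 in this table is not evidence that a gene was silent. Of 12 markers of glioma and mesenchymal lines, 9 were at 0 in every library, VIM, CD44 and GFAP among them. Only SOX4 and NES had enough counts to be tested. SOX4 had 1148 to 1270 counts in the controls and 46 to 535 in the treated libraries, and NES had 152 to 174 and 15 to 56. Both were called lower in all 6 treatments by the edgeR test described below, whichever way C3 differed. All 10 macrophage and microglia markers, all 5 fibroblast markers and all 3 neuron markers were at 0 throughout. Among 6 hepatocyte markers, ALB had 0 to 2 counts and HP 1 to 16, and the other 4 were at 0. These are bulk libraries, in which fewer cells of a kind and less RNA per cell cannot be told apart.

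C3 was one of the more abundant messages here. It ranked 45 of 596 nuclear genes with a mean of at least 10 counts, by its mean count. The deposited counts for C3 were 511, 609 and 493 in the 3 controls, 1060 in EA30, 879 in EA45, 424 in TMZ600, 342 in EA20TMZ580, 341 in EA20TMZ380 and 208 in EA35TMZ320. After TMM scaling, which adjusts each library's total for its composition, the controls stood at 1744, 2165 and 1581 CPM (the count of a gene relative to the adjusted total of its library), a mean of 1830 ± 301 CPM (SD, n = 3). EA30 stood at 2407 CPM and EA45 at 2929 CPM. TMZ600 stood at 1234 CPM, EA20TMZ580 at 1087 CPM, EA20TMZ380 at 1039 CPM and EA35TMZ320 at 997.2 CPM. Both EA libraries were above all 3 controls, and all 4 libraries with TMZ were below all 3.

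**Figure D1:**
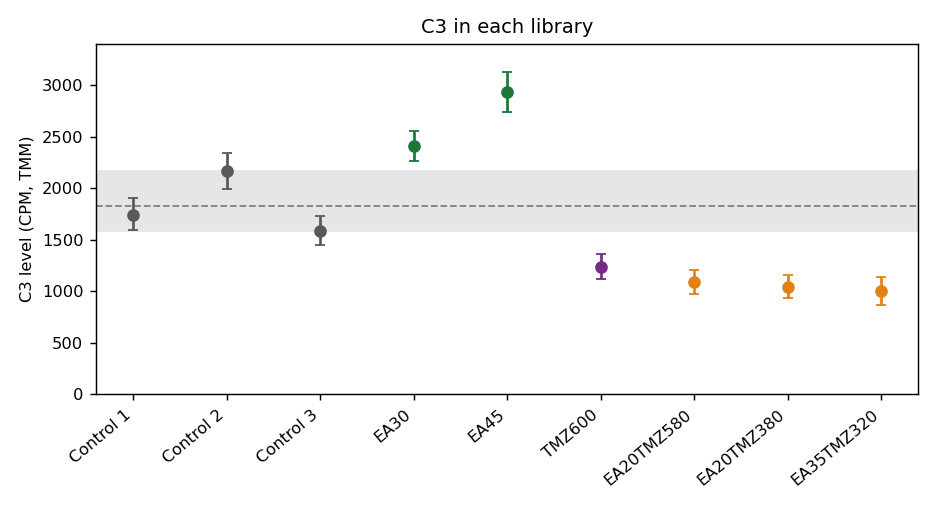
C3 level in CPM (TMM) for each of the 9 libraries, with bars for the 95% Poisson interval of the count, the grey band for the range of the 3 controls and the dashed line for their mean of 1830 CPM. EA30 and EA45 (green) lie above the band, at 2407 and 2929 CPM, and TMZ600 (purple) and the combinations (orange) lie below it, at 997.2 to 1234 CPM.

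From the highest level to the lowest, the libraries ran EA45, EA30, Control 2, Control 1, Control 3, TMZ600, EA20TMZ580, EA20TMZ380 and EA35TMZ320. EA45 was 1.22-fold EA30, with a 95% interval of 1.11 to 1.33 from the counts alone. EA30 was 1.11-fold the highest control (1.01 to 1.23). Control 2 was 1.24-fold Control 1 (1.10 to 1.40), and Control 1 and Control 3 were not told apart by their counts (0.973 to 1.25). The lowest control was 1.28-fold TMZ600 (1.12 to 1.46). Among the 4 libraries with TMZ, each step was 1.04- to 1.13-fold and its interval included 1. All of these intervals cover counting error only.

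The controls themselves varied by more than counting error. Their coefficient of variation was 16.5%, where the counts alone would give 4.33%. The highest control was 1.37-fold the lowest, which is more than any single step in the order of the libraries. EA30 in particular exceeded the highest control by less than the controls differed among themselves. Each treated value rests on 1 library, so no spread within a treatment was measured.

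Relative to the controls, C3 was 1.32-fold in EA30 and 1.60-fold in EA45. On the log2 scale these were 0.40 (SE 0.17) and 0.68 (SE 0.17) in an edgeR fit over all 9 libraries with 1 coefficient per condition. The same fit gave -0.57 (SE 0.18) for TMZ600, a 0.675-fold level. The combinations gave -0.75 (SE 0.18) for EA20TMZ580, -0.81 (SE 0.18) for EA20TMZ380 and -0.87 (SE 0.19) for EA35TMZ320, or 0.595-, 0.568- and 0.545-fold levels. All 6 values share the same controls. Their standard errors draw mostly on the spread of all genes tested and little on that of C3 itself. The SD of C3 over the 3 controls was 0.23 on the log2 scale. DESeq2 gave larger standard errors for the 6 values, 0.25 to 0.27, with 0.25 for EA30. Leaving out Control 2, the highest of them, gave 0.53 for EA30, and over the 3 ways of leaving out 1 control EA30 ranged from 0.29 to 0.53.

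These changes were moderate beside those of other genes. Of the 609 genes tested, edgeR's quasi-likelihood test called 17.6% changed in EA30, 39.1% in EA45, 9.85% in TMZ600, 24.6% in EA20TMZ580, 26.1% in EA20TMZ380 and 43.0% in EA35TMZ320, at a Benjamini-Hochberg adjusted p under 0.05. In TMZ600 and EA20TMZ580 these are 60 and 150 genes, which became 33 and 99 without Control 2. DESeq2's Wald test called 20 to 150 genes in the 6 treatments where edgeR called 60 to 262. The C3 value lay above 75.7% of all genes in EA30 and above 77.3% in EA45. In TMZ600, EA20TMZ580, EA20TMZ380 and EA35TMZ320 it lay above 19.7%, 19.0%, 21.3% and 28.2% of them. The median over all genes was between -0.13 and 0.01 in the 6 comparisons.

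**Figure D2:**
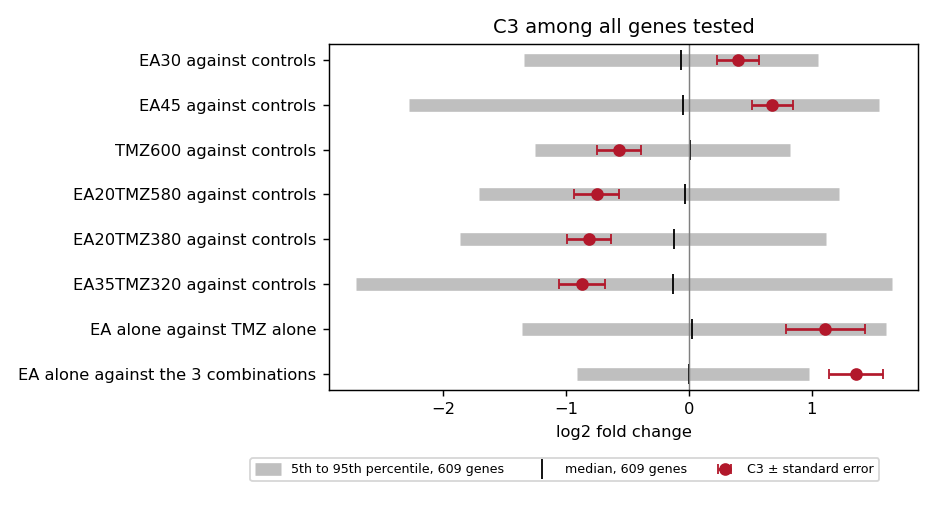
The log2 fold change of C3 (red, with its standard error) in 8 comparisons, beside the 5th to 95th percentile (grey bar) and the median (black tick) of the 609 genes tested. Against the controls C3 lies inside the grey bar in all 6 treatments, and for EA alone against the 3 combinations it lies beyond it, at 1.36. C3 was chosen on that direction, so its place there is a description only.

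The contrast between EA alone and the libraries with TMZ was wider than either was from the controls. That follows from choosing C3 for its opposite directions and is not a finding. EA30 was 1.95-fold TMZ600 and EA45 was 2.37-fold TMZ600. Against the combinations, EA30 was 2.21- to 2.41-fold and EA45 was 2.70- to 2.94-fold. In a fit with 4 groups (controls, EA alone, TMZ alone, combinations), EA alone exceeded TMZ alone by 1.11 (SE 0.32) on the log2 scale, or 2.16-fold. It exceeded the 3 combinations by 1.36 (SE 0.22), or 2.56-fold. C3 ranked 53 of 609 from the top in the first of these contrasts and 19 of 609 in the second. It was chosen on the direction of these contrasts, so the ranks are a description only.

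Few genes passed the test in these group contrasts. Between EA alone and TMZ alone the quasi-likelihood test called 1 gene of 609, or 0.164%, and between EA alone and the 3 combinations it called 4, or 0.657%. These counts are over all genes and serve as background. CYTB, a mitochondrial subunit of respiratory complex III, was the gene called in the first. In the second, GRWD1, COX1 and XR_244985.3 were lower with EA alone, where XR_244985.3 had only 3 and 4 counts. C3 is counted in the 4 because all genes were fitted. It was chosen by this difference, so neither that call nor its loss in other fits is read as a result. The count of 4 dropped to 0 in the edgeR fit without Control 1, where 54 genes still had an unadjusted p under 0.05. It dropped to 1 or 2 without Control 2, Control 3, EA20TMZ380 or EA20TMZ580. Fits without EA30 or EA45 leave EA alone with 1 library, and their counts are not given. The 1 dropped to 0 without any 1 of the controls, with 59 to 63 genes at an unadjusted p under 0.05, and rose to 9 without EA35TMZ320. DESeq2's Wald test called 10 and 7. CYTB and COX1 were singled out with their values known.

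Some libraries allow closer matching of dose. EA rose from 30 to 45 µM between the 2 libraries of EA alone, and C3 differed by 0.28 (SE 0.21) on the log2 scale. TMZ rose from 380 to 580 µM at a fixed 20 µM of EA, and C3 differed by 0.06 (SE 0.22). EA20TMZ580 and TMZ600 have nearly the same TMZ dose, with and without EA, and there C3 differed by -0.18 (SE 0.22). EA35TMZ320 has an EA dose that lies between those of EA30 and EA45, and its C3 level was lower by log2 values of -1.27 (SE 0.22) and -1.55 (SE 0.22). These are comparisons of 1 library with 1 library, and the doses match only approximately.

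How the libraries are scaled bears on C3 in EA30. By total counts, without TMM, the controls stood at 1899, 2345 and 1728 CPM and EA30 at 2162 CPM, which is inside their range, while EA45 stood at 2698 CPM. The lowest EA library was then 0.922-fold the highest control, against 1.11-fold with TMM. The log2 value of EA30 against the controls became 0.12 and that of EA45 0.44. Total counts also moved the median of all 609 genes to -0.33 in EA30 and -0.29 in EA45, so C3 remained above the median. Scaling by nuclear counts alone, with mitochondrial transcripts left out of the totals, kept EA30 above every control, at 5167 CPM of nuclear counts against 3396 to 4547. The 4 libraries with TMZ were below every control with each of the 5 scalings, the highest of them at 0.773- to 0.849-fold the lowest control.

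**Figure D3:**
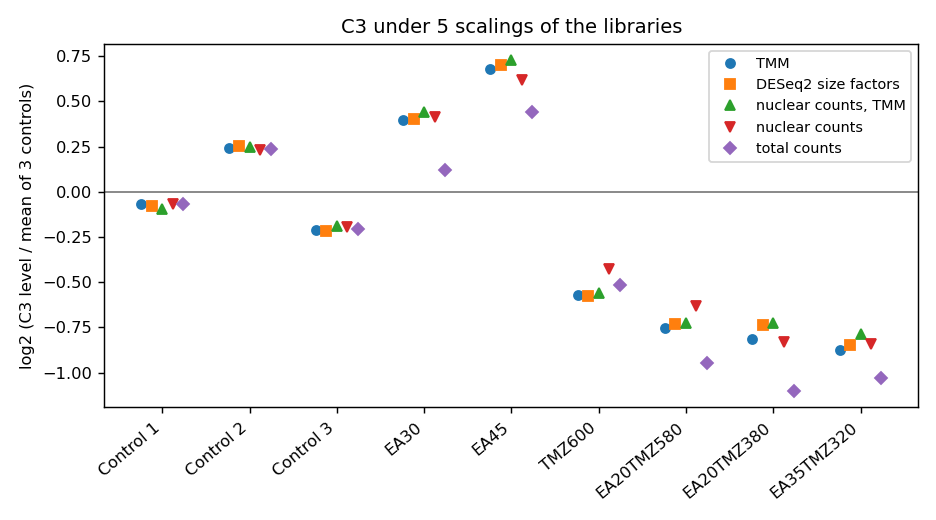
The log2 ratio of the C3 level in each library to the mean of the 3 controls, under 5 ways of scaling the libraries. The libraries with TMZ lie below 0 and EA45 above it throughout, while EA30 drops among the controls when only total counts are used.

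The pattern for which C3 was chosen was shared by 1 other gene. With TMM, 2 of 609 genes (0.328%) had both EA libraries above every control and all 4 TMZ libraries below every control, and they were C3 and MIR2116. MIR2116 is a microRNA gene measured here at 35.27 to 40.96 CPM in the controls, 43.14 and 83.32 CPM in EA30 and EA45, and 14.38 to 27.43 CPM with TMZ. Those levels rest on 10 to 12 counts in the controls, 19 in EA30, 25 in EA45 and 3 to 9 with TMZ, so its EA30 and highest control levels were not told apart at this depth, and EA35TMZ320 was at the floor of 3 counts. Without the EA libraries its mean would be below the minimum of 10 counts, so it was among the 609 only through them. By total counts 3 genes had the pattern, and C3 was not among them. The mirror pattern, lower with EA alone and higher with TMZ, was seen in 5 genes (0.821%): CLIC4, GRWD1, NRIP3, OPRD1 and XR_244985.3. CLIC4 had 11 counts in both EA45 and Control 2. XR_244985.3 had 3 and 4 counts with EA alone, near the floor, and 14 in EA35TMZ320 against 18 in Control 2. These levels of EA45 and EA35TMZ320 were not told apart from Control 2 at this depth. By total counts 2 genes had the mirror pattern. GRWD1, a WD-repeat protein linked to ribosome assembly, stood at 305.7 to 338.0 CPM in the controls, 99.9 and 136.6 CPM with EA alone, and 398.6 to 560.9 CPM with TMZ. These counts of genes carry no test, and C3 was picked for the pattern. MIR2116 and the 5 mirror genes were singled out with their values known.

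C3 was the only complement gene with enough counts to follow. Of 57 other genes in the 6 complement lists, 52 were listed at 0 in all 9 libraries, 5 had counts below the minimum and 0 were tested. Over the whole table only 5564 of 80013 genes and unassigned transcripts had any count. Nothing about complement is therefore read from these zeros. All 8 genes of the classical pathway list, all 3 of the alternative pathway list and all 8 members of a separate list of relatives of C3, the thioester protein family, which partly overlaps the complement lists, were at 0. Among the lectin pathway 8 of 9 were at 0, among the terminal components 5 of 7, among the regulators 18 of 19 and among the receptors 10 of 11.

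The 5 complement genes with any count were sparse. C7, a terminal component of the membrane attack complex, had 7, 4 and 8 counts in the controls. EA30, TMZ600 and EA20TMZ580 each had 0, EA45 had 4, EA20TMZ380 had 2 and EA35TMZ320 had 1. Its controls were thus at 4 or more and 5 of the 6 treated libraries at 2 or fewer, and EA45 fell in the range of the controls. C1QBP, a mitochondrial protein that can bind the C1q head, had 1 count in EA30, 3 in EA45, 5 in TMZ600 and 0 elsewhere. FCN1, a ficolin of the lectin pathway, had 1 count in each of 2 controls. C9 had 1 count and SERPING1, the C1 inhibitor, had 2 counts, all in Control 3. In a library, 3 counts correspond to 6.811 to 14.38 CPM, and differences below that level were not detectable at this depth.

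Genes that act before or around C3 gave little more. Of 18 cytokines and receptors known to induce C3, 16 were at 0 in every library, and OSMR and IL6R had few counts. Of 18 transcription factors and signalling genes linked to its control, 14 were at 0. The same held for 14 of 17 acute-phase and reactive-astrocyte genes, 16 of 18 NF-kB targets, and 6 of 7 proteases able to cleave C3, where CTSD, cathepsin D, had 3 to 14 counts. No member of these lists was tested. Most of the whole table was likewise at 0 in every library, so nothing about these lists is read from the zeros.

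Among 18 interferon-stimulated genes, 15 were at 0 and 2 were tested, the antiviral membrane proteins IFITM1 and IFITM2. IFITM1 passed the edgeR test as lower in all 6 treatments, EA alone included, with 907.4 to 1021 CPM in the controls and 177.4 to 567.6 CPM in the treated libraries. With DESeq2's Wald test its calls in EA30, EA20TMZ380 and TMZ600 were lost (adjusted p = 0.185, 0.15 and 0.0687), as was that in EA30 without the filter (edgeR adjusted p = 0.088). IFITM2 passed as lower in EA45 at -1.58 (edgeR adjusted p = 1.09e-10), a library in which C3 was high, and in EA35TMZ320 at -2.37 (5.62e-15), in which C3 was low. It also passed as lower in EA20TMZ580 at -0.58 (edgeR adjusted p = 0.00531) and in TMZ600 at -0.55 (0.0145), both with low C3. The call in TMZ600 was lost with the Wald test (adjusted p = 0.0992), without the filter (0.131) and without Control 2 (0.0933). In EA30 IFITM2 differed by -0.16 (edgeR adjusted p = 0.533) and in EA20TMZ380 by -0.18 (0.395), and by total counts both were called lower, at adjusted p of 0.0314 and 0.0177. Neither gene was ordered across the treatments as C3 was.

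Few genes near C3 on chromosome 19 had enough counts to compare with it. Within 500 kb of C3 there are 44 annotated genes, of which 36 are in the table, 29 are at 0 in all libraries and 4 were tested. The nearest on each side, TNFSF14 at -7.1 kb and GPR108 at 9.3 kb, were both at 0. Negative distances point to lower coordinates, which is the 3′ side of C3. The tested neighbours were CLPP at -307.5 kb, PSPN at -301.8 kb, TNFSF9 at -141.8 kb and CD70 at -86.6 kb.

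TNFSF9 and CD70, ligands of the tumour necrosis factor family that act on T cells, were higher in several treatments on both sides of the C3 pattern. TNFSF9 stood at 92.17, 177.7 and 153.9 CPM in the controls, at 322.4 in EA30, 929.8 in EA45, 226.9 in TMZ600, 483.1 in EA20TMZ580, 548.6 in EA20TMZ380 and 1127 in EA35TMZ320. All 6 treated libraries were above the controls, and the edgeR test called 5 of them, not TMZ600 (log2 0.68, adjusted p = 0.113). The call in EA30 was lost with DESeq2's Wald test (adjusted p = 0.0858). CD70 stood at 1437 to 1598 CPM in the controls, 1106 in EA30, 3689 in EA45, 2284 in TMZ600 and 1935 to 5633 in the combinations. It passed the edgeR test as higher in EA45, TMZ600, EA20TMZ580 and EA35TMZ320, with adjusted p from 5.43e-16 to 0.00541. The call in TMZ600 was lost with the Wald test (adjusted p = 0.0673) and without Control 2 (edgeR adjusted p = 0.0636). CD70 in EA30, at -0.45 (edgeR adjusted p = 0.0528), was called lower by total counts (0.000827), under the stricter filter of 50 counts (0.0438) and without Control 1 (0.02). In EA20TMZ380, at 0.36 (0.0852), it was called higher with DESeq2's size factors (0.0308), without mitochondrial transcripts (0.0157) and without Control 1 (0.0134).

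The number of C3 counts per CD70 count was 1.09, 1.46 and 1.10 in the controls, 2.18 in EA30 and 0.794 in EA45. TMZ600 gave 0.540, EA20TMZ580 gave 0.423, EA20TMZ380 gave 0.537 and EA35TMZ320 gave 0.177. EA30 was above the controls in this ratio, and EA45 and all 4 TMZ libraries were below them. Per TNFSF9 count, C3 stood at 18.9, 12.2 and 10.3 in the controls, 7.46 in EA30, 3.15 in EA45 and 0.885 to 5.44 with TMZ, so here EA30 too was below every control. CLPP, a mitochondrial protease, had no call against the controls in any treatment, with edgeR adjusted p from 0.147 to 0.888, although EA20TMZ580 passed by total counts (0.0187) and without Control 1 (0.0232). Per CLPP count, C3 stood at 1.08 to 1.58 in the controls, 1.58 in EA30, 2.03 in EA45 and 0.599 to 1.16 with TMZ. PSPN, a neurotrophic factor, also had no call, with edgeR adjusted p from 0.131 to 0.829. PSPN overlaps ALKBH7, and without a stated strand setting their reads may not be separable. Between EA alone and TMZ alone the edgeR adjusted p of the 4 neighbours ran from 0.411 to 0.977, and between EA alone and the 3 combinations from 0.824 to 0.948.

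**Figure D4:**
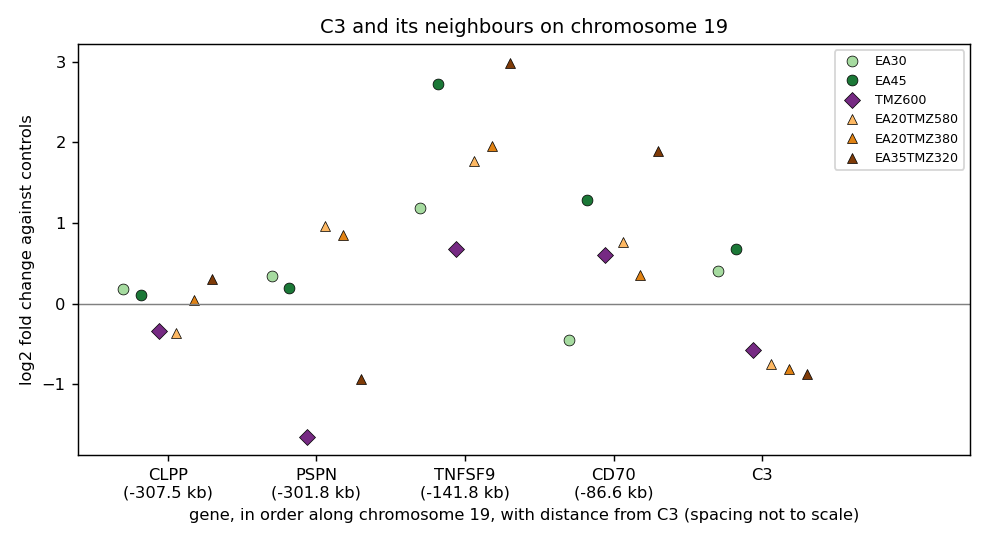
Log2 fold change against the controls for C3 and its 4 tested neighbours, in order along chromosome 19, with 1 point per treatment. C3 has both EA points above 0 and all 4 TMZ points below it, whereas TNFSF9 is above 0 in all 6 and CD70 in 5.

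The genes whose levels across the 9 libraries were most like those of C3 were listed by Pearson's r of log2 CPM, among 447 genes with a mean of at least 20 counts. This list describes the libraries and carries no test, since they share depth, scaling and controls. The median r was 0.02, with 3 genes above 0.8 and 5 below -0.8. STRCP1 (r = 0.848) and CEACAM8 (r = 0.848) came first, followed by RPL37 (0.822), ISCA2 (0.789), ND3 (0.772), LOC105370664 (0.771), FZD7 (0.760), NIPBL-DT (0.756), OSBPL8 (0.723) and XM_011528764.2 (0.723). STRCP1 is a pseudogene, so its reads may be shared with its parent gene. At the opposite end were OPRD1, an opioid receptor (r = -0.916), NRIP3 (-0.905), GRWD1 (-0.896), TBC1D16 (-0.850) and UQCR11 (-0.805).

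Likeness in r did not mean likeness in size. CEACAM8, a granulocyte adhesion protein also encoded on chromosome 19, stood at 245.8, 298.6 and 208.4 CPM in the controls, 451.8 in EA30, 506.6 in EA45, 192.0 in TMZ600, 216.1 in EA20TMZ580, 158.5 in EA20TMZ380 and 52.74 in EA35TMZ320. Both EA libraries were above its controls, and of the TMZ libraries all but EA20TMZ580 were below them. Relative to the log2 mean of the controls, CEACAM8 was at 0.85 and 1.01 with EA and at -2.11 in EA35TMZ320, its widest departure. STRCP1 spanned only -0.29 to 0.19 on that scale. FZD7, a Wnt receptor, was at 0.16 in EA30 but at -0.54 in EA45, so its direction with EA alone was mixed. RPL37 (-0.12 and 0.71) and LOC105370664 (-0.30 and 0.68) were mixed too. OSBPL8 (-0.61 and -0.20) and NIPBL-DT (-0.21 and -0.31) were below the control mean in both EA libraries. The rest of the 10 were above it in both. With TMZ, ISCA2 was above the control mean in TMZ600, at 0.44, and XM_011528764.2 in EA20TMZ380, at 0.23. Of the 10 genes most like C3 by Pearson's r, 5 were also among the 10 by Spearman's rho, and 7 when the 6 treated libraries alone were used.

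**Figure D5:**
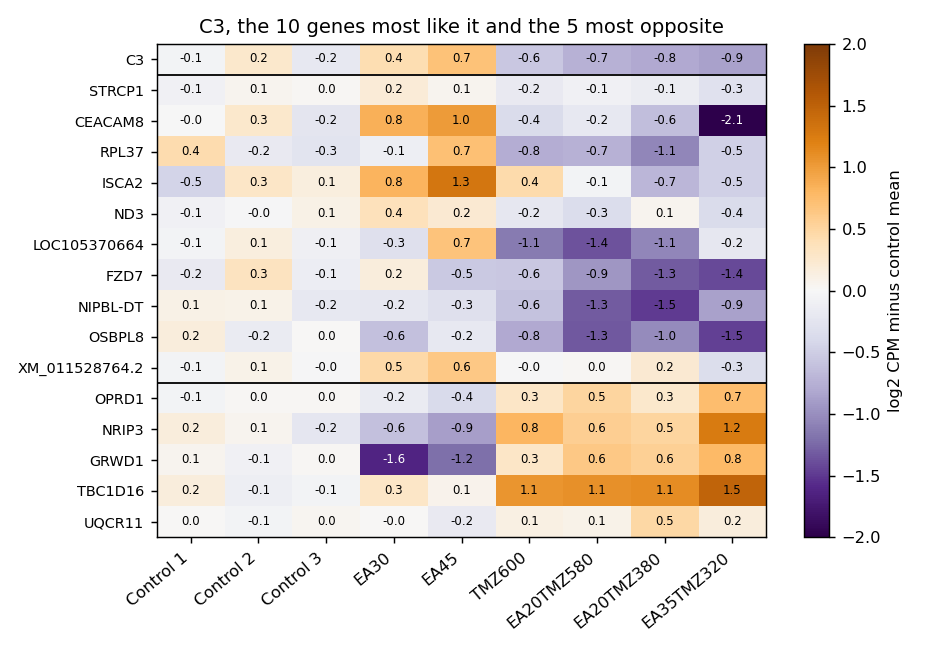
Log2 CPM minus the control mean in each library for C3 (top row), the 10 genes most like it and the 5 most opposite by Pearson's r, with colour limited to the range from -2 to 2. The EA columns are mostly orange and the TMZ columns mostly purple in the upper block, with CEACAM8 reaching -2.11 in EA35TMZ320, and the lower block is largely reversed.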

How the data were processed

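RNA of U-87 cells was sequenced from the 3′ end in 9 libraries. The authors deposited 1 table of raw counts per RefSeq transcript, with 159067 rows, made with htseq-count and not normalized. The submitters' processing notes name HISAT2, HTSeq and hg38, with no version given. The counting strand and annotation release are not given in the sources used here. Libraries were assigned to treatments by their labels. Counts were summed per gene symbol of the RefSeq annotation of GRCh38.p14. Of the transcripts, 57755 matched by accession and version and 56301 by accession alone, and 45011, with 4.63% of counts, had no symbol and were kept by identifier.

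Genes with a mean of at least 10 counts (609) were fitted in R 4.3.3 with edgeR 4.0.16 (glmQLFTest, quasi-likelihood), using TMM scaling and Benjamini-Hochberg adjustment at 0.05. One fit had a coefficient per condition and the other had 4 groups. The spread in the first came from the 3 controls alone, and that of each gene was drawn strongly toward the trend over all genes (48.4 prior against 2 residual degrees of freedom). DESeq2 1.42.0 gave an alternative test. Intervals of C3 counts are exact 95% Poisson intervals, and intervals of ratios are exact conditional binomial intervals, and both cover counting error only. The steps were tested on simulated data. The named genes are C3, list members that passed the filter, complement genes with any count, genes within 500 kb of C3, and the 10 most like and 5 most opposite genes by Pearson's r of log2 CPM (prior count 2, mean of at least 20 counts). C3 and all gene lists were chosen with earlier results of these data known. Alternatives were other size factors, other filters, counts per transcript, mitochondrial transcripts left out and libraries left out in turn. Scaling by total counts was added after seeing the data for the counts of called genes and the named genes. Drawing used matplotlib 3.10.9.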

Additional observations from a re-analysis of the deposited data

How the results depend on the processing

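C3 kept its direction in all 8 comparisons under every alternative recomputed for it. Other filters and counts per transcript are not among these. Of 66 recomputed C3 values, 62 moved by less than the spread of the controls and 4 moved further, all with total counts in place of TMM: 0.12 for EA30, 0.44 for EA45, -1.10 for EA20TMZ380 and 0.80 for EA alone against TMZ alone, on the log2 scale. Without 1 control in turn, C3 ranged from 0.29 to 0.53 in EA30 and 0.58 to 0.82 in EA45. It ranged from -0.67 to -0.43 in TMZ600, -0.85 to -0.61 in EA20TMZ580, -0.92 to -0.68 in EA20TMZ380 and -0.96 to -0.72 in EA35TMZ320. With the EA and combination libraries also left out in turn, the range was 0.97 to 1.25 for EA alone against TMZ alone and 1.21 to 1.49 against the 3 combinations. No paired analysis was possible because only the controls carry replicate numbers and each treatment has 1 library. In the fit by condition a treatment with 1 library is assumed to vary as the controls do. In the fit with 4 groups TMZ alone is assumed to vary as the controls, EA alone and the combinations do within their groups, dose differences included, and leaving out EA30 or EA45 leaves EA alone with 1 library.

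The counts of called genes moved more, and the cause was not tested. DESeq2's Wald test called 41 genes in EA30 and 113 in EA45, where edgeR called 107 and 238. It called 20 in TMZ600, 53 in EA20TMZ580, 57 in EA20TMZ380 and 150 in EA35TMZ320, where edgeR called 60, 150, 159 and 262. It called 10 between EA alone and TMZ alone and 7 between EA alone and the combinations, where edgeR called 1 and 4. Without a filter edgeR called 101 in EA20TMZ380, 94 in EA20TMZ580, 4 between EA alone and TMZ alone and 7 against the combinations. With a mean of at least 50 counts it called 3 between EA alone and TMZ alone, and with total counts 3. Without mitochondrial transcripts it called 0 there (65 at an unadjusted p under 0.05) and 2 against the combinations. Without 1 control in turn the counts were 83 to 115 in EA30, 206 to 241 in EA45, 99 to 164 in EA20TMZ580, 112 to 158 in EA20TMZ380, 224 to 270 in EA35TMZ320 and 33 to 78 in TMZ600. With a control or a combination left out in turn they were 0 to 9 between EA alone and TMZ alone and 0 to 6 against the combinations. Total counts moved the share of called genes that were higher from 50.5% to 19.1% in EA30, 50.8% to 35.0% in EA45, 45.3% to 20.7% in EA20TMZ380 and 50.7% to 27.6% in EA20TMZ580. The shift was from 45.0% to 38.8% in EA35TMZ320 and from 43.3% to 52.9% in TMZ600, where the majority turned from lower to higher. Of the recomputed values for other named genes, 10 lost a call, 10 gained one and 446 kept their side of the threshold, and PSPN had no adjusted p from DESeq2 in 2 comparisons.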
